A study of Mus musculus with 8 samples.

Results

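The genes described here are the hair keratins and keratin-associated proteins, the proteins of which the hair shaft and its inner sheath are built. They were chosen by symbol in the platform annotation of the deposited value table: every Krtap gene, and the keratins Krt25 to Krt28, Krt31 to Krt36, Krt71 to Krt75 and Krt81 to Krt86, with the probe of highest mean over the 8 arrays standing for each gene. In all 44 of the 16593 named genes on the array met this rule, 14 keratins and 30 keratin-associated proteins. After a filter on dim probes 39 of the 44 were tested, and 5 lay below it (Krt25, Krtap3-2, Krtap4-2, Krtap6-1 and Krtap13).

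RNA was taken from whole melanomas of C57BL/6 mice, 1 tumour sample on each Illumina array, after 4-hydroxytamoxifen had been painted on the right ear, right flank and tail of pups on postnatal days 2 to 4. All mice carried BrafCA and Tyr::CreER, a recombinase driven by the melanocyte gene for tyrosinase, so the drug turns on mutant Braf in melanocytes. Tumours with Ifnar1+/+, called WT, were taken at day 38 after the drug, and tumours with Ifnar1SA, called SA, at days 20, 38 and 60, with 2 arrays in each of the 4 groups. The genotype field of the labels was followed, since their treatment protocol names Ifnar1-/- mice in place of Ifnar1SA, and the labels state neither which painted site a tumour came from nor whether the samples of a group are separate mice, so p-values reflect only how far apart these samples lay.

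A hair grows from the base of its follicle, where dividing matrix cells turn into the concentric layers of the shaft and of the inner root sheath that moulds it. Type I and type II keratins pair into filaments, and each layer uses its own set; in the shaft the filaments are embedded in keratin-associated proteins, which are rich in cysteine or in glycine and tyrosine and bind the filaments together through disulphide bonds and other contacts. These genes are on while a follicle grows and off in the phases of regression and rest. Which cells of these whole tumours made their RNA was not measured.

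In the SA tumours the hair keratin genes were lower at day 60 than at day 38, with a median difference over all 44 genes of −2.66 on the log2 scale, a 6.30-fold difference in intensity, against a median of 0.04 over all 18312 measurements of the table. All 44 differences lay below 0, as did 46.3% of all genes tested. The type I inner root sheath keratin Krt26 and the high-sulfur protein gene Krtap1-5 fell by 4.08 and 4.76, and these were the 2 of 39 tested genes called by limma, where a call needed a Benjamini-Hochberg adjusted p under 0.05 among all genes tested. That is 5.13%, and all genes were called lower at a rate of 0.377% and in either direction at 1.09%. At an unadjusted p under 0.05, 28 of the 39 were lower and 0 higher, where 11.0% of all genes were lower. In 36 of the 39 both day 60 arrays read below both SA day 38 arrays, which held for 25.0% of all genes tested. Both calls were lost when any 1 array of WT day 38, SA day 38 or SA day 60 was left out. The median over the 44 genes ran from −3.61 to −1.79 when 1 array at a time was left out. The 5 genes below the filter differed by −0.18 to −0.07. A gene that passed the filter only through the arrays where it was high had to differ, so the counts describe the 39 genes and not the whole class. In 8 of the 39, Krtap19-1 among them, both day 60 arrays lay below the filter value of 7.242. In bulk tumours, fewer hair follicle cells in a sample and less RNA per follicle cell cannot be told apart. Nor can the age of the mouse be told apart from day, since all pups were painted on postnatal days 2 to 4. The phase of hair growth was not tested. Sex, too, cannot be told apart from day in this comparison. Xist, a gene of female cells, read high and the Y-linked Eif2s3y low at SA day 38, and the reverse held at days 20 and 60.

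**Figure D1:**
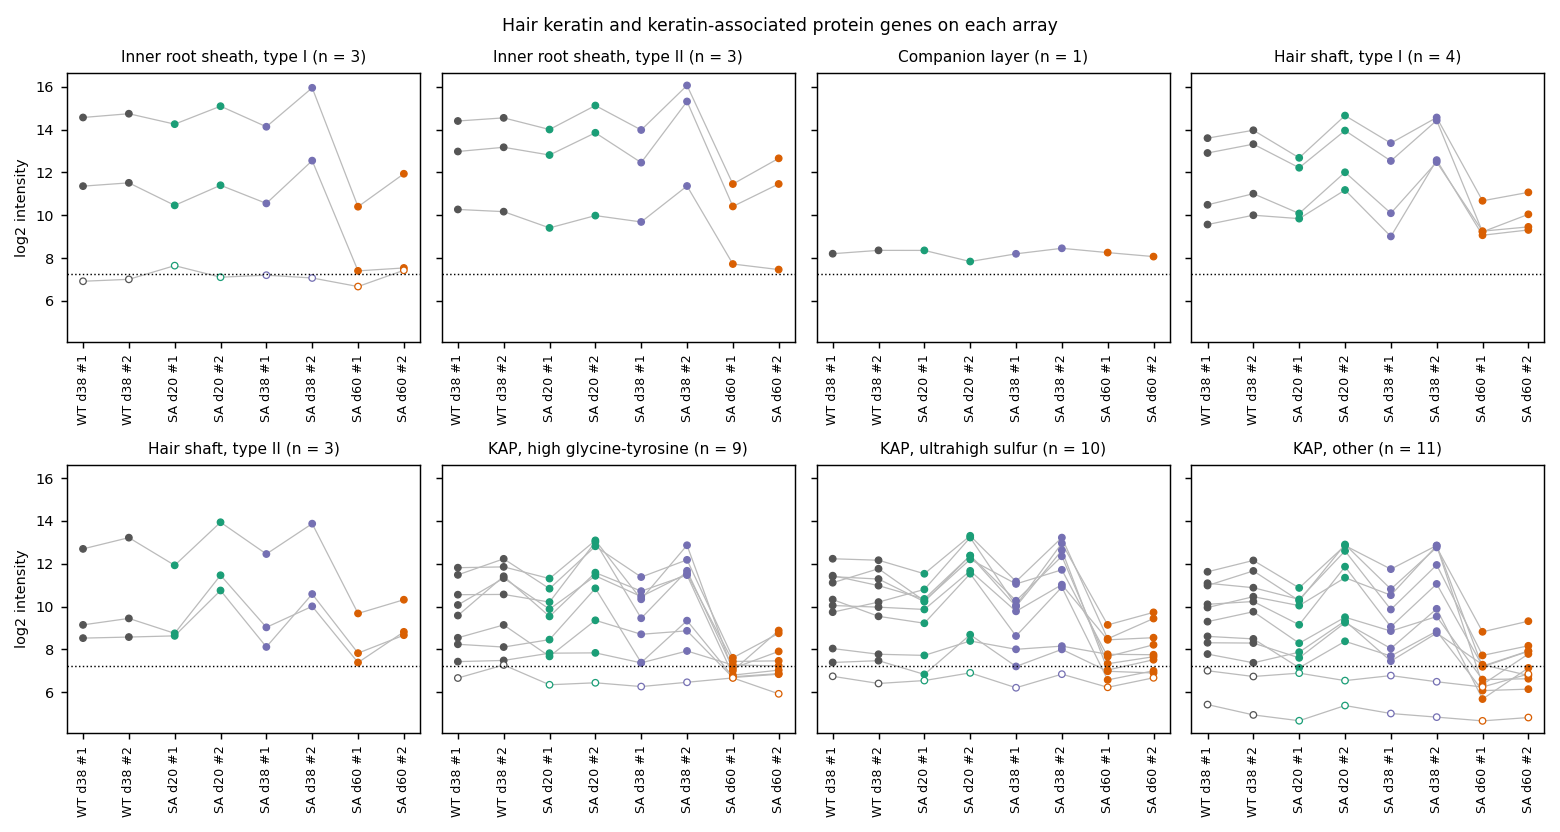
Log2 intensity (y axis) of each hair keratin and keratin-associated protein gene on each of the 8 arrays (x axis, # marking the replicate), in 8 classes. A grey line joins the values of 1 gene, open points are the 5 genes below the filter and the dotted line is the filter value of 7.242; in most panels the 2 day 60 arrays are the lowest, and SA day 20 replicate 2 and SA day 38 replicate 2 the highest.

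All 5 tested inner root sheath keratins were lowest at day 60. The sheath keratin Krt25 lay below the filter and overlapped, at 7.20 and 7.07 at SA day 38 and 6.67 and 7.43 at day 60. Krt26, a type I keratin of the sheath, read 11.36 and 11.51 in the WT day 38 tumours, 10.46 and 11.40 in SA at day 20, 10.55 and 12.55 in SA at day 38, and 7.40 and 7.54 in SA at day 60. Both day 60 values lay close to the filter value and more than 2 log2 units below every other array. It fell by 4.08 from day 38 to day 60 (SE 0.63, limma adjusted p = 0.0457), or 17-fold. Krt27, its neighbour in type and layer, read 14.57 and 14.75 in WT, 14.26 and 15.10 at day 20, 14.14 and 15.96 at day 38, and 10.40 and 11.94 at day 60. Its day 60 arrays lay well above background and below the other 6 arrays, with a difference from day 38 of −3.88 (SE 0.71) that did not pass at an adjusted p of 0.0552.

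The type II partners of the sheath followed the same order. Krt71 read 14.41 and 14.55 in WT, 14.01 and 15.13 at day 20, 13.99 and 16.07 at day 38, and 11.46 and 12.66 at day 60. Krt73 read 12.98 and 13.18 in WT, 12.82 and 13.86 at day 20, 12.46 and 15.32 at day 38, and 10.41 and 11.46 at day 60. Krt72 read 10.27 and 10.17 in WT, 9.41 and 9.98 at day 20, 9.69 and 11.37 at day 38, and 7.72 and 7.46 at day 60. In all 3 the day 60 pair lay below the 6 other arrays and SA day 38 replicate 2 was the highest array. The day 60 minus day 38 differences were −2.97 for Krt71 (adjusted p = 0.0805), −2.95 for Krt73 (adjusted p = 0.111) and −2.94 for Krt72 (adjusted p = 0.0540) and none passed. On SA day 38 replicate 2 the Krt71 intensity of 68907.8 was near the highest value of the table, 71767, with 0.105% of probes brighter, and Krt27 at 63813.7 had 0.195% brighter, so their levels on that array may be understated.

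Krt75, the type II keratin of the companion layer that lies between the inner and outer root sheaths, stood apart from this order. It read 8.20 and 8.36 in WT, 8.36 and 7.84 at day 20, 8.20 and 8.45 at day 38, and 8.25 and 8.07 at day 60. The groups overlapped, and the day 60 minus day 38 difference was −0.17 (95% interval −0.68 to 0.35, adjusted p = 0.659). These values lay close to background, where the intensity scale understates differences. The probe could therefore not show a fall of the size seen for Krt26. The gene has 2 further probes on the array, dimmer but with means above the filter value, which did not stand for the gene in the test. The first of these Krt75 probes read 7.20 and 8.59 at SA day 38 and 6.83 and 7.41 at day 60, which overlap, but both day 60 values lay below its day 20 values of 7.70 and 7.56. The second read 7.01 and 7.61 at SA day 38 and 7.08 and 7.36 at day 60, and its day 60 values overlapped those of every other group. Its WT values of 7.51 and 7.31 lay above its day 20 values of 7.19 and 7.13.

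Among the type I keratins of the hair shaft, Krt33a and Krt34 of the cortex were lower by more than 3 log2 units at day 60. Krt34 read 13.60 and 13.97 in WT, 12.68 and 14.66 at day 20, 13.37 and 14.57 at day 38, and 10.68 and 11.07 at day 60. Krt33a read 12.91 and 13.32 in WT, 12.22 and 13.96 at day 20, 12.54 and 14.43 at day 38, and 9.22 and 10.04 at day 60. Neither overlapped between day 60 and any other group, and the differences from day 38 were −3.10 (SE 0.67, adjusted p = 0.0650) for Krt34 and −3.85 (SE 0.77, adjusted p = 0.0579) for Krt33a. Krt31, also of the cortex, read 10.49 and 11.01 in WT, 10.08 and 12.01 at day 20, 10.10 and 12.49 at day 38, and 9.26 and 9.46 at day 60. Its day 60 arrays were again the lowest, by less, at −1.93 (SE 0.88, adjusted p = 0.220). Krt35, a keratin of the matrix and the early cuticle and cortex, read 9.57 and 10.0015 in WT, 9.84 and 11.18 at day 20, 9.01 and 12.58 at day 38, and 9.07 and 9.31 at day 60. Here the pair at SA day 38 lay 3.57 apart, the widest gap of the 39 genes in any group, and spanned both day 60 values. The Krt35 difference of −1.60 (adjusted p = 0.380) turned to 0.18 without SA day 38 replicate 2.

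The type II shaft keratins held both patterns. Krt86, of the cortex, read 12.70 and 13.22 in WT, 11.93 and 13.94 at day 20, 12.46 and 13.88 at day 38, and 9.68 and 10.32 at day 60, with day 60 below all other arrays and a difference from day 38 of −3.17 (SE 0.73, adjusted p = 0.0708). Its second probe read 12.43 and 13.79 at SA day 38 and 9.33 and 9.75 at day 60. Krt84, known in humans from the tongue, read 9.14 and 9.45 in WT, 8.75 and 11.46 at day 20, 9.03 and 10.01 at day 38, and 7.38 and 8.82 at day 60. Its day 60 values overlapped those of day 20 and lay below those of day 38 (−1.42, adjusted p = 0.361). Krt82, a keratin of the shaft cuticle, read 8.52 and 8.57 in WT, 8.63 and 10.75 at day 20, 8.11 and 10.59 at day 38, and 7.82 and 8.66 at day 60. Replicate 2 at days 20 and 38 was about 2 log2 units above the other arrays, the groups overlapped, and the difference of −1.11 (adjusted p = 0.488) became 0.13 without SA day 38 replicate 2. The other 2 Krt82 probes differed from each other. One read 7.53 and 9.81 at SA day 38 and 6.79 and 6.82 at day 60, with day 60 below all 6 other arrays, and the other read 7.43 and 9.12 against 7.31 and 7.86, which overlap.

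**Figure D2:**
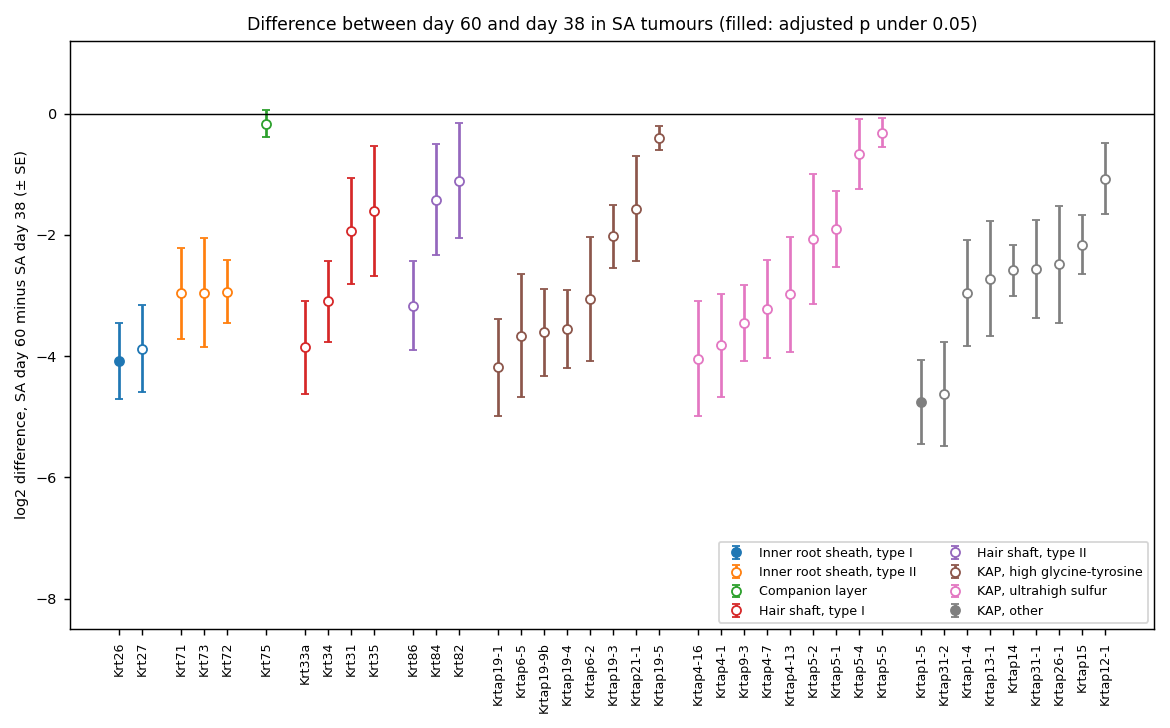
Difference in log2 intensity between SA day 60 and SA day 38 (y axis, bars ± 1 SE of the limma fit) for each of the 39 tested genes (x axis), coloured by class and ordered within it. Filled points are the 2 genes with an adjusted p under 0.05, Krt26 and Krtap1-5; all 39 points lie below 0, and Krt75, Krtap5-5 and Krtap19-5 lie nearest to it.

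The keratin-associated proteins were tested in 26 of 30 genes. All 26 read lower on both day 60 arrays than on both SA day 38 arrays, as did 25.0% of all genes tested. Below the filter, Krtap4-2, Krtap6-1 and Krtap13 overlapped between these groups and Krtap3-2 did not. The high glycine-tyrosine families, small proteins of the shaft cortex, ranged from −4.18 for Krtap19-1 to −0.40 for Krtap19-5. Krtap19-9b read 11.48 and 12.23 in WT, 10.84 and 12.82 at day 20, 11.38 and 12.18 at day 38, and 7.60 and 8.75 at day 60. Krtap6-5 read 11.82 and 11.85 in WT, 11.31 and 13.09 at day 20, 10.34 and 12.87 at day 38, and 7.0 and 8.88 at day 60. In both genes each day 60 array lay more than 1 log2 unit below the lowest of the other 6. Krtap6-2 read 10.55 and 10.57 in WT, 10.21 and 13.02 at day 20, 9.45 and 11.67 at day 38, and 7.11 and 7.90 at day 60. Krtap19-4 read 10.07 and 11.33 in WT, 9.88 and 11.44 at day 20, 10.47 and 11.54 at day 38, and 7.43 and 7.46 at day 60. The day 60 pairs were again the lowest. The differences from day 38 were −3.60 for Krtap19-9b (adjusted p = 0.0579), −3.66 for Krtap6-5 (adjusted p = 0.0910), −3.06 for Krtap6-2 (adjusted p = 0.128) and −3.56 for Krtap19-4 (adjusted p = 0.0544), and none passed.

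The ultrahigh-sulfur families, whose proteins are dense in cysteine, ranged from −4.04 for Krtap4-16 to −0.32 for Krtap5-5. Krtap4-7 read 12.23 and 12.17 in WT, 11.53 and 13.31 at day 20, 11.17 and 13.22 at day 38, and 8.49 and 9.44 at day 60. Krtap9-3 read 11.11 and 11.77 in WT, 10.26 and 12.21 at day 20, 11.06 and 11.72 at day 38, and 7.66 and 8.21 at day 60. Krtap4-1 read 11.40 and 11.29 in WT, 10.23 and 12.38 at day 20, 10.27 and 12.35 at day 38, and 7.33 and 7.65 at day 60. In these 3 the day 60 pair lay below the other 6 arrays, with differences from day 38 of −3.23 (adjusted p = 0.0800), −3.45 (adjusted p = 0.0548) and −3.82 (adjusted p = 0.0674). Family 5, which is used in the shaft cuticle, differed less. Krtap5-2 read 9.74 and 10.21 in WT, 10.80 and 13.22 at day 20, 10.05 and 12.96 at day 38, and 9.14 and 9.73 at day 60. Its day 60 values lay just below the WT pair, and the difference from day 38 was −2.07 (adjusted p = 0.271). Krtap5-1 differed by −1.91 (adjusted p = 0.122), Krtap5-4 by −0.67 (adjusted p = 0.495) and Krtap5-5 by −0.32 (adjusted p = 0.436). The last of these read 7.72 to 8.39 over all 8 arrays, close to background, where the intensity scale understates differences.

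The other keratin-associated proteins, among them the high-sulfur family 1, held the gene with the greatest difference. Krtap1-5 read 11.63 and 12.16 in WT, 10.87 and 12.85 at day 20, 11.75 and 12.86 at day 38, and 7.18 and 7.91 at day 60. Its day 60 arrays lay near the filter value and about 3 log2 units below the lowest of the other 6. It fell by 4.76 from day 38 to day 60 (SE 0.69, limma adjusted p = 0.0447), or 27.0-fold. Krtap1-4 of the same family read 11.09 and 10.88 in WT, 10.34 and 12.60 at day 20, 9.86 and 11.94 at day 38, and 7.72 and 8.17 at day 60. Krtap13-1 read 10.98 and 11.67 in WT, 10.27 and 12.90 at day 20, 10.82 and 12.76 at day 38, and 8.82 and 9.32 at day 60. Krtap31-2 read 9.95 and 10.46 in WT, 10.04 and 11.35 at day 20, 10.53 and 12.85 at day 38, and 6.36 and 7.78 at day 60. All 3 were lowest at day 60, with differences from day 38 of −2.96 (adjusted p = 0.103), −2.72 (adjusted p = 0.138) and −4.62 (adjusted p = 0.0560). Krtap genes lie in clusters of close relatives, and probes of near-identical copies may share signal. The probe sequences were not used here, and whether the 26 probes measured separate transcripts was not tested.

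The genes lie on 5 chromosomes, and lower day 60 values were not limited to 1 cluster. On chromosome 11, with 15 tested genes of the type I keratins and of families 1, 4, 9 and 31, differences ranged from −4.76 to −1.60. The 12 tested on chromosome 16, of families 6, 13 to 15, 19, 21 and 26, ranged from −4.18 to −0.40, and the 7 type II keratins on chromosome 15 from −3.17 to −0.17. The 4 genes of family 5 on chromosome 7 ranged from −2.07 to −0.32, and Krtap12-1 on chromosome 10 differed by −1.07.

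The promoters of the 2 called genes are shown with those of Krt73, an inner root sheath keratin, and of Krt75, whose tested probe overlapped between all groups. Each window runs from 250 bases before to 50 after the start of the RefSeq gene in build GRCm38.p6, 5′ to 3′ on the minus strand, and capitals mark the letters TATAAA, the core of a TATA box. The windows are chr11:99337916-99338215 for Krt26, chr11:99580967-99581266 for Krtap1-5, chr15:101802311-101802610 for Krt73 and chr15:101573855-101574154 for Krt75.
Krt26: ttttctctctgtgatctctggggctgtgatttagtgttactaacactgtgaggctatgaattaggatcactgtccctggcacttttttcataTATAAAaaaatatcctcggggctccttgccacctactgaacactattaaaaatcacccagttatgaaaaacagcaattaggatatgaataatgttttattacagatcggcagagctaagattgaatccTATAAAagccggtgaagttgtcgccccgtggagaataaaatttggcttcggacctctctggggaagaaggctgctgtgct
Krtap1-5: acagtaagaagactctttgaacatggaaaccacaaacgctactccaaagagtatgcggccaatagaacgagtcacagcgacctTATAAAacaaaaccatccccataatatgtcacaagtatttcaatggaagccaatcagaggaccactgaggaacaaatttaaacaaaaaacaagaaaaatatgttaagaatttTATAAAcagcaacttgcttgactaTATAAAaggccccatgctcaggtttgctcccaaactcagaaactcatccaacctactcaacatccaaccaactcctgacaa
Krt73: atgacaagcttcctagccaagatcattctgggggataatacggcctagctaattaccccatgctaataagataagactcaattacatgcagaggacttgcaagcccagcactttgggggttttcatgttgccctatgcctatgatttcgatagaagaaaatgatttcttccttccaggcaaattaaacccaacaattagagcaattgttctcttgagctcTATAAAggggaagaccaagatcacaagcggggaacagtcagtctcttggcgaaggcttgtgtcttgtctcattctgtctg
Krt75: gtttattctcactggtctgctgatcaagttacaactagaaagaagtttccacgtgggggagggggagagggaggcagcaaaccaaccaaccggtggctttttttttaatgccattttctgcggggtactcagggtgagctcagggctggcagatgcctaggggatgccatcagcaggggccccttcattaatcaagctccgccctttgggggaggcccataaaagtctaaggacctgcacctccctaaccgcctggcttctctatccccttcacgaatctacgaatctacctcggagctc

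In Krt26 the TATAAA nearest the start began 30 bases before it, in Krtap1-5 31 and in Krt73 30, and the Krt75 window held none. These 4 windows do not stand for the list. The Krt72 window also held none on the top strand, though Krt72 differed from day 38 by −2.94. Krt25, below the filter and overlapping between days 38 and 60, had TATAAA 30 bases before its start. Whether TATAAA goes with the day 60 difference was not tested. RefSeq promoters were found for 40 of the 44 genes, and not for Krt33a, Krt35, Krt86 and Krtap12-1. TATAAA on the top strand with its first base 20 to 40 bases before the start was present in 22 of the 40 promoters (55%), against 1.99% of 32851 promoters of all genes. On either strand anywhere in the 300 bases it was present in 33 of 40 (82.5%) against 13.6% of all. The letters TCAAAG or ACAAAG, the core bound by LEF and TCF factors, were present on either strand in 20 of 40 (50%) against 31.2% of all. Genes of 1 cluster share ancestry, so the 40 windows are not independent, and a match of letters is a description and not a bound site.

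The hair keratin genes also read lower in SA tumours at day 60 than at day 20. The median difference over all 44 was −2.51 (5.71-fold) against 0.02 over all measurements, and 43 of 44 differences lay below 0, as did 46.5% of all genes tested. With Benjamini-Hochberg adjustment limma called 0 of 39, and 0% of all genes tested. At an unadjusted p under 0.05, 31 of the 39 were lower, where 9.68% of all genes were lower, and in 34 of 39 the groups did not overlap, against 22.7% of all genes. The smallest adjusted p-values were those of Krtap1-5 at −4.31 (SE 0.69, adjusted p = 0.0882) and Krt26 at −3.46 (SE 0.63, adjusted p = 0.0913). Krt75 was the tested gene with a difference above 0, at 0.06 (adjusted p = 0.883). SA day 20 replicate 2 was the higher of its pair in 38 of 39 genes. Without that array the median over the 44 was −1.67, and without replicate 1 it was −3.57. This comparison shares the day 60 arrays with the one above. Both day 60 arrays lay below all 6 other arrays, WT included, in 33 of the 39 genes and in 10.5% of all genes tested.

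Between the genotypes at day 38, 0 of 39 hair keratin genes were called by limma, where 0.0600% of all genes were, and 0 of 39 reached an unadjusted p under 0.05, where 14.1% of all genes did. The median SA minus WT difference over the 44 genes was 0.18 against −0.02 over all measurements, and it was −0.48 without SA day 38 replicate 2 and 0.97 without replicate 1. The pairs overlapped in every tested gene but Krtap31-2, whose SA values of 10.53 and 12.85 lay above its WT values of 9.95 and 10.46 by 1.48 (95% interval −0.58 to 3.54, adjusted p = 0.476). Non-overlap held for 24.1% of all genes with SA higher and 30.1% with SA lower. Krtap5-2 was the other gene of smallest p among those higher in SA (1.53, adjusted p = 0.551), and Krtap14 (−0.33, adjusted p = 0.764) and Krtap15 (−0.28, adjusted p = 0.837) those among the lower. The intervals are wide: that of Krt27 ran from −1.33 to 2.11 and that of Krt71 from −1.25 to 2.35, so a difference of 2-fold in either direction was not detectable for them with these arrays. Sex cannot be told apart from genotype or from day 38 here, since Xist, which coats the inactive X chromosome of female cells, read 9.69 and 9.20 on the SA day 38 arrays and 6.84 to 7.56 on the other 6. The Y-linked Eif2s3y read 6.11 and 6.20 against 11.37 to 11.80.

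From day 20 to day 38 in SA tumours the hair keratin genes gave 0 calls of 39 (0.0172% of all genes were called) and 0 at an unadjusted p under 0.05 (10.7% of all genes). The median difference over the 44 was 0.01, against 0.00 for all measurements. It was −0.56 and 0.91 without SA day 20 replicates 1 and 2, and 0.73 and −0.53 without SA day 38 replicates 1 and 2. All 39 tested genes overlapped between these groups, where 18.7% of all genes were higher and 19.4% lower without overlap. Krt72 at 0.83 (95% interval −0.41 to 2.07, adjusted p = 0.601) and Krtap31-2 at 0.99 (adjusted p = 0.720) had the smallest p among higher genes, and Krtap21-1 at −1.29 (adjusted p = 0.632) and Krtap6-2 at −1.05 (adjusted p = 0.752) among lower ones.

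Much of the spread lay between the 2 tumours of a group. At SA day 38, replicate 2 read higher than replicate 1 in 39 of 39 tested genes, by a median of 1.85 (3.62-fold), and at SA day 20 replicate 2 read higher in 38 of 39, by a median of 1.803 (3.49-fold), with Krt75 the exception. The medians over all genes tested were 0.00 and 0.03. Gaps over 2-fold were found in 29 of 39 hair keratin genes at SA day 38, or 74.4%, against 5.07% of all genes, and in 33 of 39 at day 20, or 84.6%, against 9.82%. The WT pair lay closer, with a median gap of 0.15 and 2 of 39 genes over 2-fold (5.13% against 1.37% of all), and the day 60 pair had a median gap of 0.45 with 8 of 39 over 2-fold (20.5% against 4.92%). Over all genes the replicate numbers of different groups were not found to pair samples. That check cannot show whether the 2 high tumours share a painted site, which the labels do not state. Leaving out SA day 38 replicate 2, the median day 60 minus day 38 difference over the 44 genes was −1.79, and leaving out replicate 1 it was −3.61.

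**Figure D3:**
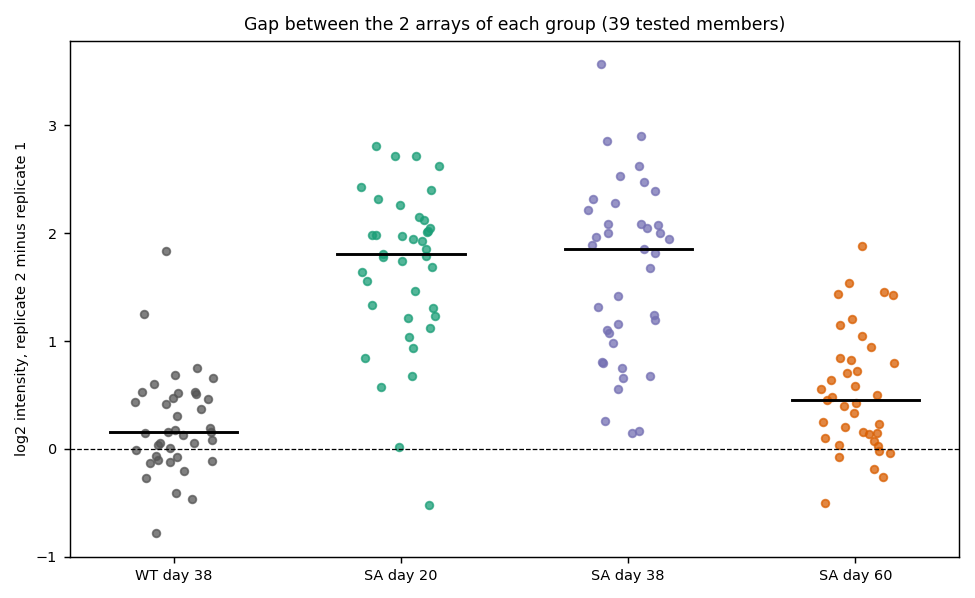
Difference in log2 intensity between replicate 2 and replicate 1 (y axis) in each of the 4 groups (x axis) for the 39 tested hair keratin and keratin-associated protein genes, 1 point a gene, with a bar at the median. The medians are 0.15 in WT day 38, 1.803 in SA day 20, 1.85 in SA day 38 and 0.45 in SA day 60.

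The 2 high tumours differed in which layers read highest. All 5 tested inner root sheath keratins were highest on SA day 38 replicate 2 among the 8 arrays, and 0 on SA day 20 replicate 2. Of the 7 shaft keratins 3 were highest on SA day 38 replicate 2 and 4 on SA day 20 replicate 2. Of the 26 keratin-associated proteins 7 were highest on SA day 38 replicate 2 and 18 on SA day 20 replicate 2, and Krtap14 on WT day 38 replicate 2. Over all genes tested 12.6% were highest on SA day 38 replicate 2 and 8.28% on SA day 20 replicate 2. These are single tumours, so the difference in order was not tested.

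Of 23 signals and transcription factors of the follicle, a list of hair follicle regulators, 17 were tested. Between day 60 and day 38 limma called 0 of the 17, where 1.09% of all genes were called in either direction. At an unadjusted p under 0.05 there were also 0, where 26.1% of all genes passed in either direction. The list's median difference was −0.28 over the 23 genes. Shh, the secreted signal of the growing matrix, read 7.86 and 8.08 in WT, 9.16 and 9.10 at day 20, 8.15 and 11.72 at SA day 38, and 7.14 and 8.07 at day 60. It was far higher on SA day 38 replicate 2 than on any other array, and its day 60 minus day 38 difference was −2.33 (adjusted p = 0.214). Cux1, a transcription factor of the inner root sheath, differed by −0.72 (adjusted p = 0.212). SA day 38 replicate 2 was the highest array in 11 of the 17, against the 12.6% of all genes. Among them were 3 transcription factor genes of the matrix and shaft, singled out here after their values were seen. Hoxc13 read 10.53 on that array and 8.52 to 9.54 on the others, Dlx3 13.23 against 10.72 to 12.08, and Msx2 9.65 against 7.17 to 8.68.

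A list of other hair structural and crosslinking genes gave a mixed picture. Of its 18 genes on the array 14 were tested. Between day 60 and day 38, 0 were called, where 1.09% of all genes were. At an unadjusted p under 0.05, 4 were lower and 1 higher, Tgm5 at 0.62, and the 5 of 14 stand beside 26.1% of all genes tested in either direction. The median over the 18 was −0.31. Tchhl1, a relative of the sheath protein trichohyalin, read 11.92 and 11.86 in WT, 11.28 and 12.30 at day 20, 11.45 and 13.09 at SA day 38, and 8.45 and 9.56 at day 60 (−3.27, adjusted p = 0.0578). Psors1c2 read 11.17 and 11.76 in WT, 10.80 and 12.07 at day 20, 10.78 and 12.63 at SA day 38, and 9.07 and 9.15 at day 60 (−2.59, adjusted p = 0.0805). Both had the order seen in the inner root sheath keratins, with day 60 below all other arrays.

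Keratins of the epidermis and outer root sheath did not share the difference as a list. All 18 were tested and 0 were called between day 60 and day 38 by limma, where 1.09% of all genes were. At an unadjusted p under 0.05, 3 were higher and 3 lower, where 15.1% of all genes were higher and 11.0% lower, and the median was −0.03. Krt80 differed by −0.91 (adjusted p = 0.0579) and Krt23 by −1.64 (adjusted p = 0.0782). Differences of the list ranged from −2.80 to 3.94. The widest, named after its values were seen, was that of Krt24, which read 9.70 and 9.39 at SA day 38 and 13.88 and 13.09 at day 60 (3.94, adjusted p = 0.0865). Krt14, a keratin of basal epidermis and outer root sheath, read 16.05 to 16.12 on all 8 arrays, at the top of the scale, where differences cannot be read. Krt10 at 16.05 to 16.13 and Krt17 at 15.78 to 16.12 lay there too. Of the 4 keratins of simple epithelia 2 were tested, and Krt8 differed by −0.09 (adjusted p = 0.809) and Krt20 by 0.07 (adjusted p = 0.898).

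**Figure D4:**
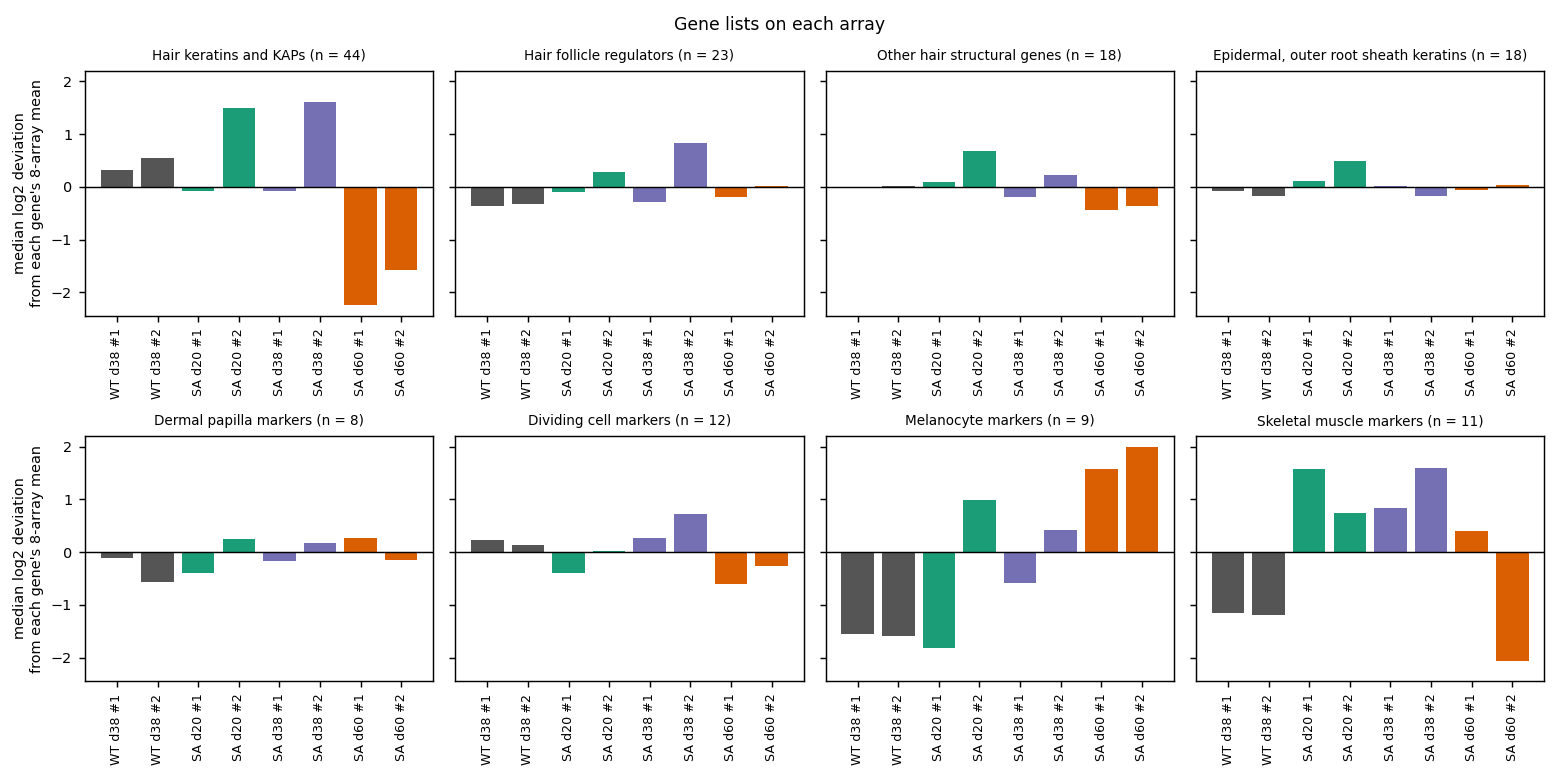
Median over a gene list of each gene's log2 deviation from its own mean over 8 arrays (y axis), for each array (x axis, # marking the replicate) and 8 lists, with n genes on the array. The hair keratin list reads −2.24 and −1.58 on the day 60 arrays and 1.49 and 1.61 on SA day 20 replicate 2 and SA day 38 replicate 2, while the epidermal and outer root sheath keratins stay within −0.18 and 0.50 on all arrays.

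Markers of other cells also differed between day 60 and day 38. Skeletal muscle markers were lower in 11 of 11 genes (median −2.60) and fat cell markers in 6 of 6 (median −1.59). Markers of dividing cells were lower in 11 of 12 (median −0.87). Melanocyte markers were higher in 9 of 9 (median 2.05). Of all genes tested 46.3% were lower, and the median over all measurements was 0.04. The mean log2 level of the 9 melanocyte markers was 10.07 and 10.85 at SA day 38 and 12.15 and 12.69 at day 60, and that of the 11 muscle markers 14.09 and 14.96 against 13.43 and 10.68. The medians of the dermal papilla, sebaceous gland and cornified epidermis lists were 0.05, −0.15 and 0.02. The part of these cell types in the hair keratin difference was not tested. On the WT arrays the muscle markers lay at medians of −1.16 and −1.19 from each gene's mean over 8 arrays, and the hair keratin genes at 0.31 and 0.55.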

How the data were processed

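RNA of 8 whole mouse melanomas was measured on Illumina arrays. The authors' deposited value table holds linear intensities for 25697 probes (183.9 to 71767). Their medians agreed between arrays (409.3 to 410), so the table was taken as already normalized; the submitters' processing notes name GenomeStudio 1.8. Another table, of unnormalized signals, was left out, since no label ties its 8 signal columns to a sample. The platform annotation gave 23978 probes 1 gene symbol, 0 several and 1719 none. Precision is limited by the number of arrays.

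The deposited intensities were background corrected with limma's normexp (offset 16, saddle-point estimation) and then taken to log2. The brightest probe stood for a gene, and a gene was tested where its mean log2 value exceeded the 40th percentile of probes (7.242), which left 11661 of 18312 measurements. With limma 3.58.1 in R 4.3.3, 1 mean for each of 4 groups was fitted to all 8 arrays (lmFit, eBayes, 4 residual and 2.49 prior degrees of freedom). A call needed a two-sided p under 0.05 after Benjamini-Hochberg adjustment across all 11661. Intervals cover 95%. The fit was tested on simulated data with noise drawn separately for each gene and array. Such data lack the shared gaps between the 2 tumours of a group seen here, so the test says nothing of them. Values near background understate differences.

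The genes and lists were chosen with earlier results of these data known. Given in full are, of each class, up to 4 tested genes with the highest mean; per comparison, the called genes or the 2 of smallest p in each direction; and of the 4 hair and keratin lists the 2 of smallest p between days 60 and 38. Alternatives were no background correction or offset 50, no filter or the 60th percentile, each probe on its own, array weights, a trended prior, a replicate block, a fit of only the compared arrays, and leaving out each array. Same-numbered samples of different groups deviated together with correlations from −0.196 to 0.107 over all genes, so the numbers were not taken to pair samples. Promoters and chromosomes came from RefSeq tables of GRCm38.p6. Of the mouse model, 1 item shared by all groups is not reported here.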

Additional observations from a re-analysis of the deposited data

How the results depend on the processing

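No alternative to the processing turned the median difference over the 44 genes for day 60 against either earlier time. Between SA day 60 and day 38, the 2 calls became 0 with no filter, 8 with the filter at the 60th percentile, 4 with each probe on its own, 4 in a fit of the compared arrays alone and 0 with the replicate block, whose numbers are not shown to pair samples. They numbered 2 with offset 50 and 3 without background correction, with array weights and with the trended prior. The share of all genes called under these settings is not given here, so the counts say nothing of these genes beside others. Neither Krt26 nor Krtap1-5 was called in every setting. Leaving out 1 array at a time gave medians of −3.61 to −1.79. For day 60 against day 20 the medians ran from −3.57 to −1.67. For SA day 38 against day 20 the calls stayed at 0 and the median ran from −0.56 to 0.91, and for SA against WT at day 38 from −0.48 to 0.97, so the direction of both rests on single arrays. Leaving out 1 of the compared arrays turned the sign of 36 of 39 tested genes for SA against WT. It turned 38 of 39 for day 38 against day 20, but 2 of 39 for day 60 against day 38. For day 60 against day 20 it turned 3 of 39. The share of all genes that turned is not given here. Among the genes named for a comparison, 8 differences turned. SA minus WT differences ran from −0.67 to 0.0061 for Krtap14 and from −0.86 to 0.30 for Krtap15, both turning without SA day 38 replicate 1. Differences of SA day 38 from day 20 ran from −2.46 to 0.35 for Krtap6-2, turning without SA day 20 replicate 2 and, at 0.06, without SA day 38 replicate 1. Those of Krt72 ran from −0.0092 to 1.67 and of Krtap31-2 from −0.16 to 2.15, turning without SA day 38 replicate 2. So did the day 60 minus day 38 differences of Krt35, from −3.39 to 0.18, and Krt82, from −2.34 to 0.13. Krt75 between days 60 and 20 ran from −0.20 to 0.32, turning without SA day 20 replicate 2 and, at −0.03, without SA day 60 replicate 1. The causes were not tested.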
